A study of Mus musculus with 3 samples.

Results

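The genes described here are 34 genes of protein folding in the endoplasmic reticulum (ER) and of the unfolded protein response (UPR), followed in iBATs over the first 2 h of isoproterenol (ISO). They were chosen by name, as chaperones, disulfide isomerases, degradation factors, translocon subunits and stress sensors of the ER, out of 18194 genes that have a probe set with a single symbol. iBATs are a brown adipocyte line that was established from the stromal vascular fraction of interscapular brown fat of C57BL/6 mice at postnatal day 3, immortalized by a retrovirus carrying SV40 large T antigen and selected with puromycin. The cells were differentiated with insulin and indomethacin, kept in insulin and used on day 8. ISO, which activates all β-adrenergic receptors, was given at 1 μM, and RNA was taken at 0, 1 and 2 h, with 1 Affymetrix mouse array per time point and the 0 h cells as the control. No arrays of other genotypes or of vehicle at 1 and 2 h were analysed here.

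Proteins that enter the secretory pathway are threaded into the ER through the translocon and folded there by chaperones, lectins and disulfide isomerases. Molecules that fail to fold are sent back to the cytosol for degradation (ERAD). When unfolded proteins accumulate, the sensors IRE1 (gene Ern1), PERK (Eif2ak3) and ATF6 start the UPR, in which ATF6 and the spliced form of XBP1 raise the transcription of chaperone and ERAD genes. Brown adipocytes secrete hormones and assemble much lipid at the ER, and brown fat is known to adjust its ER quality control during thermogenesis. The comparison asks how the RNA levels of this system stood 1 and 2 h after a β-adrenergic signal.

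Many UPR genes carry a binding site for ATF6 and XBP1 in the proximal promoter, and these sites are shown first because they divide the 34 genes by a feature other than their signals. The genes were picked as known ER and UPR genes, so the share that holds such a site is a description. The ER stress response element (ERSE) consists of a CCAAT box that is followed, after 9 bases, by the letters CCACG. In ERSE-II the reversed box, ATTGG, is followed after 1 base by the same letters CCACG. Promoters (RefSeq, GRCm38.p6, from 250 bases before to 50 after the annotated start) were found for 29 of the 34 genes, and not for Atf6, Derl1, Hyou1, Manf and Sec61a1. An exact ERSE on either strand lay in 9 of the 29 promoters (31.0%), against 0.137% of 27025 genes with a promoter and 0.193% of 5694 that were also read on the arrays. ERSE-II lay in 2 of the 29, Herpud1 and Dnajb11, against 0.0444% of all genes and 0.14% of those read. The 9 promoters with an ERSE belong to chaperones and a protein disulfide isomerase (Hspa5, Hsp90b1, Canx, Calr, Pdia6), to Dnajc3 and Creld2, and to the ERAD genes Syvn1 and Derl3. Their elements are given with 15 bases on each side, 5′ to 3′ along the strand of the gene, with the box and the second motif in capitals (an element that runs against the gene shows the reverse complement).
Hspa5: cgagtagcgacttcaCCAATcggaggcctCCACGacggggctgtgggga
Hsp90b1, farther element: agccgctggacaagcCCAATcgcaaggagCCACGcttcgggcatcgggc
Hsp90b1, nearer element: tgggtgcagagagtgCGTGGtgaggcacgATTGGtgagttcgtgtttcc
Canx: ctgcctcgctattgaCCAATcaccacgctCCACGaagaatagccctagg
Calr: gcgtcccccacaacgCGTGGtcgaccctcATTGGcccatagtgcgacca
Pdia6: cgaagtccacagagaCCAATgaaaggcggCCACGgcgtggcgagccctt
Dnajc3: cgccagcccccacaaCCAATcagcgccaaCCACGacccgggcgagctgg
Creld2: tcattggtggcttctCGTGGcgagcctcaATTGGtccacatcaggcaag
Syvn1: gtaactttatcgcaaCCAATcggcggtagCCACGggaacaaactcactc
Derl3: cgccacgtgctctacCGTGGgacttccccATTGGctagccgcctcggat

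The windows lie at Hspa5 chr2:34772010-34772058 on the plus strand, Hsp90b1 (farther) chr10:86705623-86705671 on the minus strand, Hsp90b1 (nearer) chr10:86705518-86705566 on the minus strand, Canx chr11:50325785-50325833 on the minus strand, Calr chr8:84847060-84847108 on the minus strand, Pdia6 chr12:17266476-17266524 on the plus strand, Dnajc3 chr14:118937812-118937860 on the plus strand, Creld2 chr15:88819505-88819553 on the plus strand, Syvn1 chr19:6046517-6046565 on the plus strand, Derl3 chr10:75893227-75893275 on the plus strand. Of these elements, that of Syvn1 was the nearest to the start and the farther of the 2 elements of Hsp90b1 the most distant. The ERSE-II of Herpud1 began 52 bases before the start, and its window lies at chr8:94386362-94386402 on the plus strand. That of Dnajb11 spans bases 8 to 18 of the transcript and is given with 8 bases on each side, in a window at chr16:22857844-22857870 on the plus strand.
Herpud1, ERSE-II: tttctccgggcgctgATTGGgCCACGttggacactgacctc
Dnajb11, ERSE-II: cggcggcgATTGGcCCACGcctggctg

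Of the 34 genes, 32 were read, which means that a probe set had a MAS5 signal of 100 or above on some array, as 6896 genes did in all. MAS5 signal is a linear intensity whose scale is set per array. The 2 genes that were not read are both of ERAD, Edem2 with a highest signal of 74.6 and Derl3 with 17.3. Just inside the limit lay Os9 with a highest signal of 159.5 and Hyou1 with 214.6. Each gene was read from its probe set with the highest mean signal. A ratio of 1.74-fold or more in either direction, 0.8 on the log2 scale, was taken as a call, which is the size the study used for ISO induction. A single array per time gives no replicate error, so a call is a size and not a test. Less RNA per cell and fewer cells that hold the RNA cannot be told apart in such samples.

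Of 7 brown adipocyte markers on the array all were read, with 0 h signals of 7490.0 for Fabp4 and 4986.4 for Adipoq, and Ucp1, the uncoupling protein of brown fat, was called higher at both times (log2 ratios of 1.31 and 1.49). None of 5 macrophage and leukocyte or 4 endothelial markers reached a signal of 100, the highest being Cd14 at 93.2. Of 7 preadipocyte and fibroblast markers 6 were read, and Thy1 stayed below 100. The 0 h signals of the 6 ran from 124.3 for Dlk1 to 4038.3 for Col3a1 and 4132.8 for Col1a2. Their log2 ratios lay between -0.26 and 0.14 at 1 h and between -0.45 and 0.18 at 2 h. The part of undifferentiated cells in the values of the ER genes was not tested.

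As a group the ER genes stayed close to their 0 h level. At 1 h of ISO none of the 32 was called higher and none lower, where 1.58% and 0.218% of all genes read were. Their median log2 ratio was 0.04 (all genes read, -0.02), with a range from -0.43 for Herpud1 to 0.46 for Dnajb9. At 2 h none was called higher and 1 was called lower, Herpud1, where 2.73% and 0.812% of all genes were. The median log2 ratio was -0.01 (all genes, -0.07), from -1.33 for Herpud1 to 0.79 for Dnajb9. Of the 32 genes 18 were above their 0 h signal at 1 h and 15 at 2 h, which is 56.2% and 46.9%, against 44.3% and 38.5% of all genes. They kept the same side of 0 h at both times in 12 genes above and 11 below, or 37.5% and 34.4%, where all genes gave 28% and 45.2%. Their robust spread, the scaled median absolute deviation of the log2 ratios, was 0.12 at 1 h and 0.20 at 2 h, against 0.16 and 0.24 over all genes. The ER genes lay on both sides of 0 h. Genes of like mean signal had spreads between 0.09 and 0.21 at 1 h and between 0.12 and 0.29 at 2 h, depending on the signal. The ER genes are of mixed brightness, so these limits cannot say whether they varied as much as genes as bright. The 3 furthest from 0 at 2 h differed in direction, Herpud1 being lower and Dnajb9 and Hyou1 higher.

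**Figure D1:**
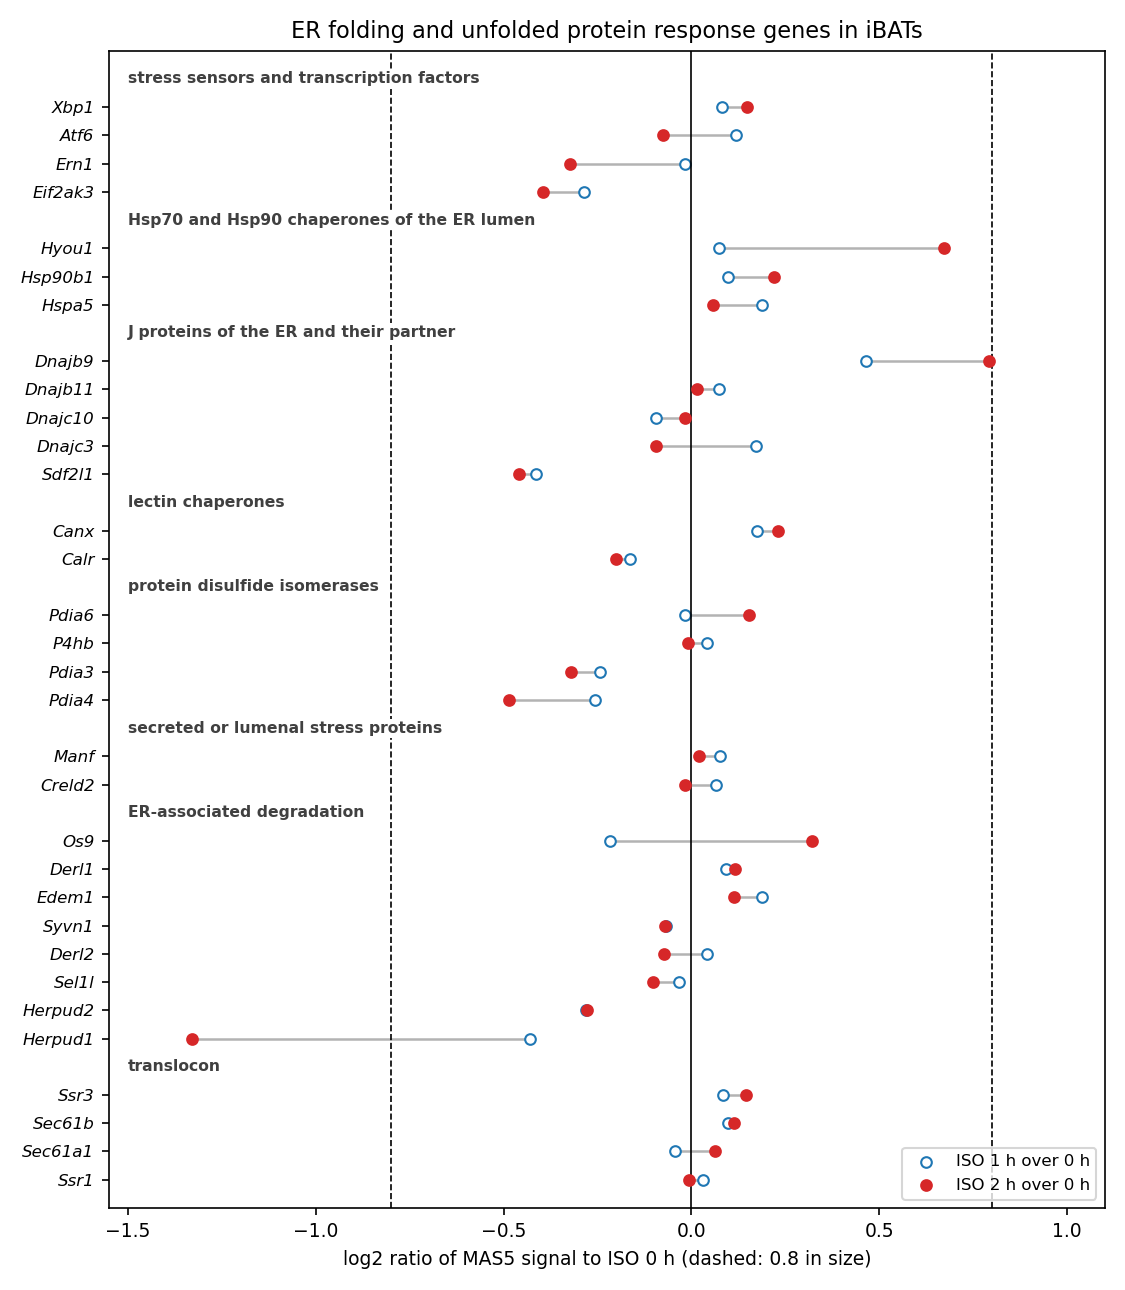
Log2 ratio of MAS5 signal to ISO 0 h (horizontal axis) for each of the 32 genes read, grouped by role; open blue points are 1 h, red points 2 h, 1 array per time point, and dashed lines mark 0.8 in either direction. Herpud1 (-1.33 at 2 h) lies beyond the left line, Dnajb9 (0.79) lies just inside the right one, and the translocon genes, on the probe sets used, lie between -0.04 and 0.14.

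Herpud1 encodes a membrane protein of the ER that scaffolds the HRD1 ligase complex of ERAD, and it is a classic UPR target. Its signals at 0, 1 and 2 h were 277.1, 205.8 and 110.2. The level was lower at each later time, to 0.743-fold at 1 h and 0.398-fold at 2 h. This is the second lowest of 6896 log2 ratios for 2 h over 0 h, and in the second hour alone the log2 ratio was -0.90, the 16th lowest. Over the second hour it was the 1 ER gene called lower (0.319% of all genes), and none was called higher (0.667%). Its other kept probe set had signals of 187.8, 151.4 and 102.4, with log2 ratios of -0.31 at 1 h and -0.87 at 2 h. Both probe sets therefore passed 1.74-fold at 2 h, and both ended near the limit of 100. The robust spread of genes of like mean signal was 0.25 at 2 h for Herpud1 and 0.12 for the bright gene Hspa5. Among the 344 or 345 genes of like mean signal, the middle 95% of log2 ratios ran from -0.58 to 0.55 at 2 h and from -0.42 to 0.36 at 1 h, and Herpud1 lay below both ranges (2.61% of all genes lie below, and 2.61% above, such a range in each comparison). Over the second hour the log2 ratio is -0.74 with 32 added to each signal and -0.73 as the median over both probe sets, which ends that call. The call at 2 h over 0 h held in all 13 alternatives.

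The bases before the start of Herpud1 are printed because its response stood apart from those of the other UPR genes. They lie at chr8:94386179-94386428 on the plus strand. Capitals mark, on either strand, the CCAAT box, the second ERSE motif (CCACG), and TGACG, which is the first part of a cyclic AMP response element. The full element reads TGACGTCA.
Herpud1: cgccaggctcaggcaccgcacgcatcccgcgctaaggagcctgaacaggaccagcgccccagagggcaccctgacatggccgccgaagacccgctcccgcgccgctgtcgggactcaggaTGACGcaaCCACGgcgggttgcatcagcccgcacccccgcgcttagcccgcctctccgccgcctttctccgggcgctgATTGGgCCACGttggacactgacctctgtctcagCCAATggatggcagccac

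This stretch holds 2 CCAAT boxes, 2 copies of the second ERSE motif and 1 of the cyclic AMP motif. That short motif lay in 11 of the 29 promoters (37.9%), against 23% of all genes with a promoter and 39.3% of those read. The full cyclic AMP response element lay in none of the 29, against 2.03% and 3.9%, and neither did TGACGTGG, the core of the unfolded protein response element that XBP1 binds (0.714% and 1.18%). The second ERSE motif, which is also part of ERSE-II, lay in 23 of the 29 (79.3%, against 35.5% and 55.3%), and the CCAAT box, part of both elements, in 22 (75.9%, against 41.1% and 43.2%). A match to these letters is a description of the window and not a bound site.

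**Figure D2:**
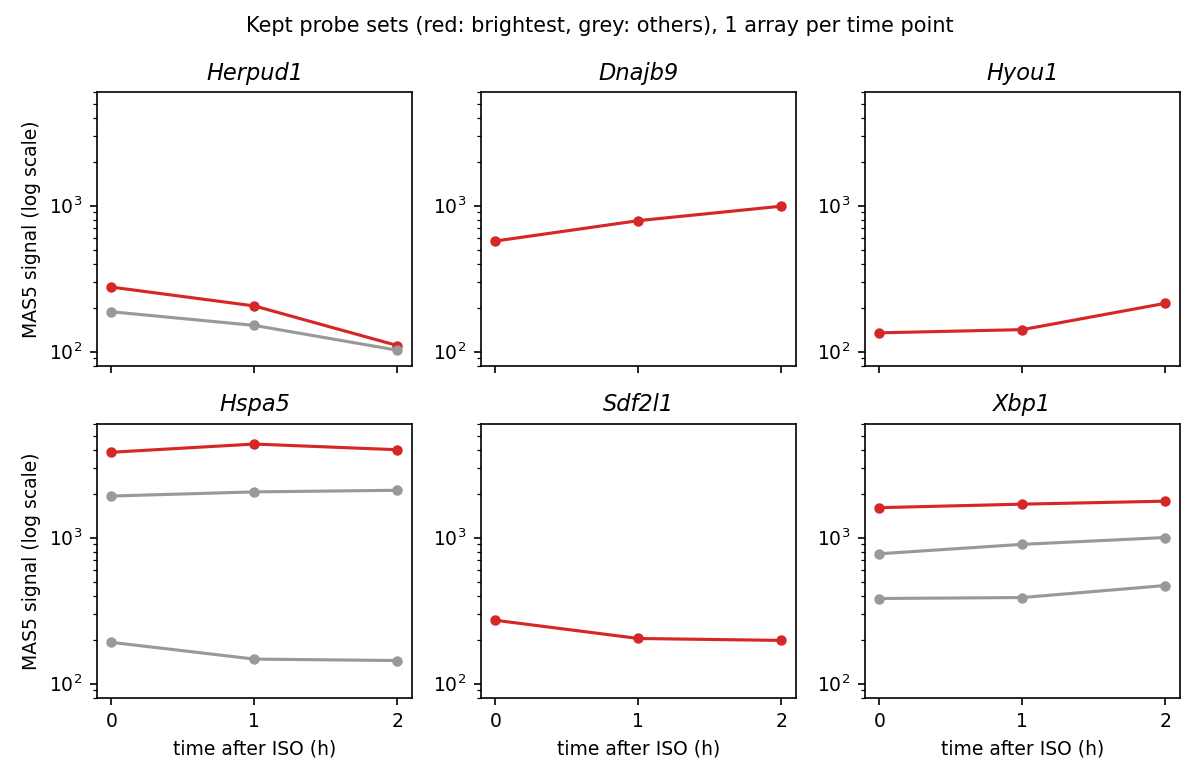
Kept probe sets of 6 of the genes, as MAS5 signal (vertical axis, logarithmic) at 0, 1 and 2 h of ISO (horizontal axis, hours). Each point is 1 array, so no error is drawn; red is the probe set used for the gene and grey any other. Both probe sets of Herpud1 go down at each step, to 110.2 and 102.4 at 2 h, whereas the one used for Hspa5 stays between 3839.7 and 4370.5.

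The rest of the ERAD genes did not follow Herpud1. Herpud2, its paralog, had signals of 409.0, 336.8 and 337.2, or a log2 ratio of -0.28 at both times. A dimmer kept probe set of Herpud2 was at -0.08 and -0.30. Syvn1 encodes HRD1, the ubiquitin ligase of the complex, and had signals of 390.9, 373.2 and 372.6. Sel1l, the adaptor of that ligase, had 406.5, 397.4 and 378.9. On the log2 scale these partners of Herpud1 were at -0.07 and -0.10 at 2 h. The other kept probe set of each had the opposite sign at 2 h, at 0.06 for Syvn1 and 0.16 for Sel1l. The derlins, which take part in moving substrates out of the ER, were at 0.12 (Derl1) and -0.07 (Derl2) at 2 h, although a dimmer probe set of Derl2 was at -0.68. Edem1, a mannosidase-like protein that hands misfolded glycoproteins to ERAD, was at 0.19 and 0.11 on the main probe set, and a dimmer one was at -0.45 and -0.22.

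Os9, a lectin that recognizes ERAD substrates, had signals of 127.7, 109.9 and 159.5. It was below 0 h at 1 h (log2 ratio -0.22) and above it at 2 h (0.32). Its 0.54 for the second hour lay above the middle 95% of like genes (-0.55 to 0.42). This step rests on 1 dim probe set. Another probe set of Os9, below 100 on all arrays, did not repeat it, with signals of 72.3, 72.9 and 72.7. Of the 8 ERAD genes read, 3 were above and 5 below 0 h at each time, with medians of -0.05 at 1 h and -0.07 at 2 h.

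Dnajb9 had the highest ratio of the 32 genes at both times. It encodes ERdj4, a J protein that works with the ER Hsp70 and represses IRE1. Its signals were 572.5, 789.7 and 992.1 on its single kept probe set. The level was higher at each later time, 1.38-fold at 1 h and 1.73-fold at 2 h, which is just short of a call. The log2 ratio of 0.79 at 2 h was above the middle 95% of genes of like signal (-0.36 to 0.74), and that at 1 h, 0.46, was not (upper bound 0.58). With the arrays set to the same median it is 0.81 and with cyclic loess 0.80, both past the limit for a call. Its promoter, at chr12:44210069-44210318 on the minus strand, is printed for comparison with Herpud1, with the same letters in capitals.
Dnajb9: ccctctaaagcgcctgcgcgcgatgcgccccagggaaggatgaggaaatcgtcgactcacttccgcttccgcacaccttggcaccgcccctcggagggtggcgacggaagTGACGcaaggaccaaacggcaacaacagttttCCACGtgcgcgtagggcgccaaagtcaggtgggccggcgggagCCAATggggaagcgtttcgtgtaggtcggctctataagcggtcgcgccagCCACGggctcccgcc

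The bases before the start of Dnajb9 hold 1 CCAAT box, 2 copies of the second ERSE motif and 1 of TGACG. Unlike Herpud1, Dnajb9 had no exact ERSE or ERSE-II in its promoter.

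On the probe sets used, the other J proteins and their partner went different ways. Dnajb11 (ERdj3), a secreted and lumenal cochaperone, had signals of 355.9, 374.2 and 359.5, and Dnajc3 (P58IPK), a cochaperone known as an inhibitor of PERK, had 555.4, 625.1 and 520.2. Other kept probe sets of Dnajc3 were at -0.01 and 0.10, and at -0.04 and -0.20, against 0.17 and -0.09 on the one used. For Dnajc10 (ERdj5), a disulfide reductase of ERAD, the log2 ratios were -0.09 and -0.02. Its other kept probe sets were above 0 at both times, at 0.03 and 0.07, and at 0.21 and 0.14. Sdf2l1, which binds ERdj3 and is strongly raised in ER stress, had signals of 271.7, 203.9 and 197.8. It was lower at both times, and at 1 h lay below the middle 95% of like genes (log2 ratio -0.41, lower bound -0.36) and at 2 h within it (-0.46, lower bound -0.63).

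Hspa5 encodes BiP, the ER Hsp70 and the usual marker of the UPR. Its signals were 3839.7, 4370.5 and 3994.6, or 1.14-fold at 1 h and 1.04-fold at 2 h. The level was thus close to that of 0 h on all arrays. A second probe set was at 0.09 and 0.13 on the log2 scale, and another, with a signal of 191.9 at 0 h, at -0.38 and -0.41. Its promoter holds an ERSE and 3 further CCAAT boxes, and is printed as that of the best known UPR gene, from chr2:34771840-34772089 on the plus strand.
Hspa5: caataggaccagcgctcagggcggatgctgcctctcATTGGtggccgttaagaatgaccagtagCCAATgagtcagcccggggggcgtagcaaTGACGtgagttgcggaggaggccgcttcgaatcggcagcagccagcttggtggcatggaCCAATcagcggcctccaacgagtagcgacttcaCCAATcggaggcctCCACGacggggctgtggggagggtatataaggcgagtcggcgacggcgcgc

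Hsp90b1, the ER Hsp90 known as GRP94, had signals of 2410.7, 2576.5 and 2807.7. Its log2 ratio at 2 h was 0.22 on that probe set and -0.05 on another, with signals of 2505.9, 2556.6 and 2425.6. Hyou1, a large Hsp70 relative that exchanges the nucleotide of BiP and was named for its rise in hypoxia, had signals of 134.7, 141.7 and 214.6. Nearly all of its step fell in the second hour, with log2 ratios of 0.07 at 1 h, 0.67 at 2 h and 0.60 for 2 h over 1 h. The value for 2 h over 1 h lay above the middle 95% of like genes (upper bound 0.57), and that at 2 h was at the edge of it, above an upper bound that also rounds to 0.67. Hyou1 was read from 1 probe set, of a type whose probes can match more than 1 transcript.

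At 1.5-fold, a size below the call, 2 of the 32 genes were higher at 2 h, Dnajb9 and Hyou1 (6.25%, against 4.15% of all genes), and Herpud1 was lower (3.12%, against 3.13%). At 1 h no ER gene was past 1.5-fold (2.41% of all genes higher, 0.754% lower), and over the second hour Hyou1 was higher (1.67%) and Herpud1 lower (0.972%). The shares at 2 h were near those of the array as a whole.

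**Figure D3:**
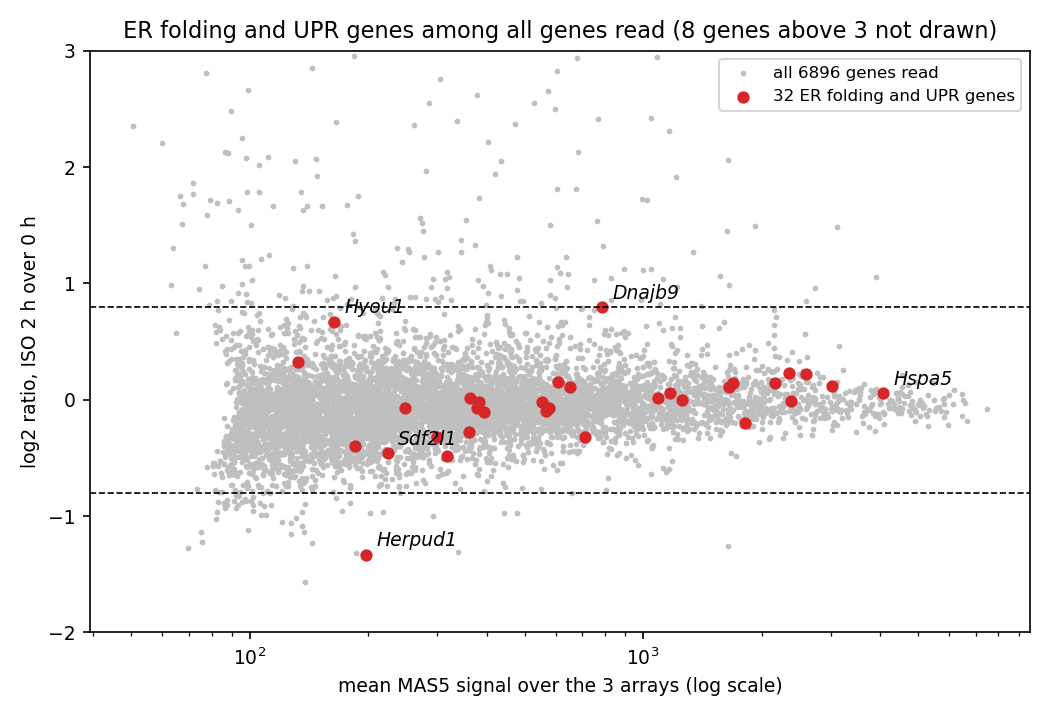
Log2 ratio for ISO 2 h over 0 h (vertical axis) against mean MAS5 signal over the 3 arrays (horizontal axis, log scale) for all 6896 genes read (grey) and the 32 ER folding and UPR genes (red); dashed lines mark 0.8 in either direction and 8 genes above 3 are not drawn. Herpud1 lies at -1.33 below the cloud of genes of its brightness, and Hspa5 at 0.06 in the middle of its own.

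The lectin chaperones hold newly made glycoproteins until they fold. Canx (calnexin, in the membrane) had signals of 2137.2, 2411.3 and 2505.2, and Calr (calreticulin, in the lumen) had 1973.7, 1761.2 and 1716.8. Their log2 ratios at 2 h had opposite signs, 0.23 and -0.20. A second probe set of Canx had the same sign, at 0.25, and the dimmest, with signals of 115.6, 100.9 and 101.8, was at -0.18. Both other probe sets of Calr had the opposite sign, at 0.03 and 0.04.

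Protein disulfide isomerases form and rearrange disulfide bonds. P4hb, the classic PDI, had signals of 2353.3, 2420.1 and 2338.4, and Pdia6 had 589.1, 582.4 and 655.2. At 2 h their log2 ratios were -0.01 and 0.15. Pdia3 (ERp57), the partner of the lectin chaperones, had signals of 807.6, 682.7 and 646.9, and Pdia4 (ERp72) had 372.3, 311.4 and 266.0. These were lower at each later time, at 0.801-fold and 0.714-fold at 2 h, and that of Pdia4 was the second lowest ratio of the 32 genes. Manf, a secreted ER stress protein, was at 0.08 and 0.02 on the log2 scale, and Creld2, a lumenal protein with disulfide isomerase activity, 0.06 and -0.02.

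Of the translocon genes, Sec61a1, the channel, had signals of 1163.7, 1129.6 and 1214.3, and Sec61b, a small subunit of it, had 1569.9, 1680.2 and 1698.2. Ssr1 and Ssr3, subunits of the translocon-associated complex, had 1249.8, 1277.4 and 1245.2, and 2055.2, 2180.0 and 2271.1. On these probe sets the log2 ratios of the 4 genes lay between -0.04 and 0.14. Dimmer kept probe sets went further, with Sec61a1 at -0.24 on one and 0.20 on another at 2 h, Ssr1 at -0.13 and Ssr3 at 0.16 at 1 h.

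Among the sensors, Ern1 had signals of 322.6, 318.5 and 258.0 and Eif2ak3 had 215.5, 176.7 and 163.8. Their log2 ratios at 2 h were -0.32 and -0.40. Atf6 had signals of 245.0, 266.1 and 232.6 on the main probe set, and a second probe set was at -0.28 at 1 h, opposite to the main one (0.12). Xbp1, whose RNA is spliced by IRE1 in ER stress, had signals of 1603.0, 1694.5 and 1775.9. All 3 of its kept probe sets were above 0 h at both times, between 0.15 and 0.37 at 2 h. These values are total Xbp1 RNA as the probe sets see it, and the spliced share was not measured.

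The probe sets of a gene could differ in sign where changes were this small. Of 18 genes with more than 1 kept probe set, 10 had probe sets on both sides of 0 at 1 h, and 10 at 2 h. The same count was not made over all genes, so whether it is unusual is not known. No kept probe set of the 34 genes passed 1.74-fold at 1 h, and 2 of 61 did at 2 h, both of Herpud1. The share over all kept probe sets was not computed. Taking for each of all 6896 genes its kept probe set of largest ratio, 125 were higher and 28 lower at 1 h, and 233 and 84 at 2 h.

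Read by promoter element, the genes with an ERSE were close to 0 h. On the probe sets used, the 8 that were read had log2 ratios between -0.16 and 0.19 at 1 h (median 0.08, 5 above and 3 below 0). At 2 h they lay between -0.20 and 0.23 (median 0.02, 4 above and 4 below). The 17 genes with neither element ranged from -0.41 to 0.46 at 1 h (median -0.02) and from -0.49 to 0.79 at 2 h (median -0.02). Dimmer kept probe sets went further in both groups. One of Hspa5, with an ERSE, was at -0.38 and -0.41, and one of Derl2, with neither element, at -0.68 at 2 h. These groups differ in number and in brightness. At 2 h, genes of like signal had spreads from 0.12 (Hspa5) to 0.21 (Creld2) for the ERSE genes. For the genes with neither element they ran from 0.12 (P4hb) to 0.29 (Os9). The difference in range was not tested. Both genes with an ERSE-II differed from each other, with Herpud1 at -1.33 and Dnajb11 at 0.01 at 2 h. Outside the 34 genes, 3 further genes read hold an ERSE (Adcy3, Ero1b and Pan2) and lay between -0.03 and 0.04 at 2 h, and 6 hold an ERSE-II (Krtcap2, Lgalsl, Lrif1, Nucb1, Rbm39 and Rcl1) and lay between -0.10 and 0.17. Of the 11 genes read with an ERSE and the 8 with an ERSE-II, only Herpud1 was past 1.74-fold, at 2 h. Over all genes read, 1.58% were called higher and 0.218% lower at 1 h, and 2.73% and 0.812% at 2 h. The genes with an element are too few to be told apart from those shares.

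**Figure D4:**
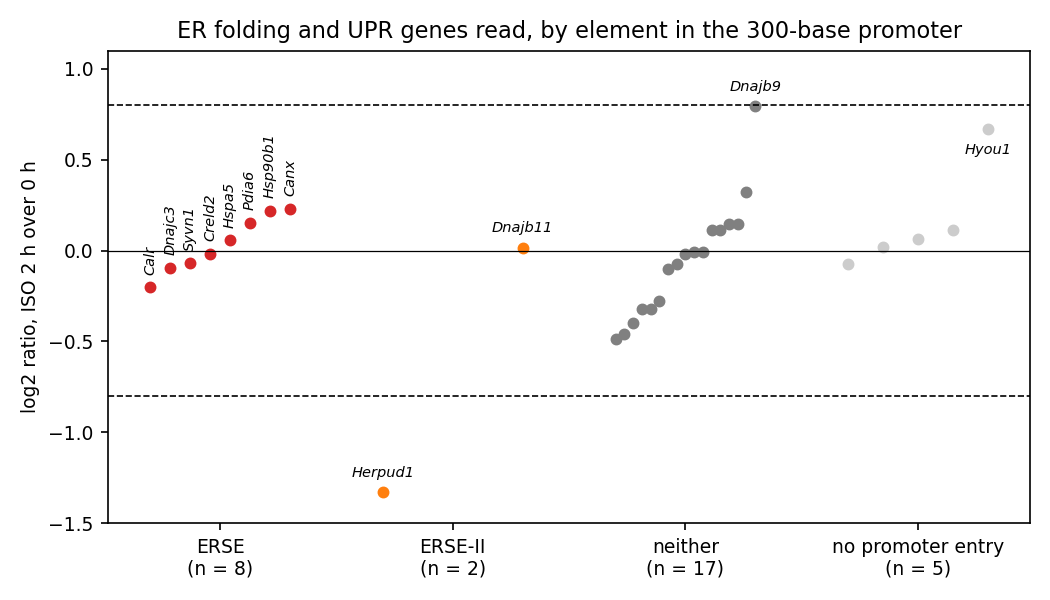
Log2 ratio for ISO 2 h over 0 h (vertical axis) of the 32 genes read, 1 point per gene, in 4 classes by the element found in the promoter (horizontal axis; 5 genes had no promoter entry); dashed lines mark 0.8 in either direction. On the probe sets used, the 8 genes with an ERSE lie between -0.20 and 0.23. Herpud1 (-1.33) is the 1 gene beyond a dashed line.

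Other genes of the ER gave a like result. Of 67 read out of 74, none was called higher or lower at 1 or 2 h, and the medians were 0.00 and -0.03. Of all genes read, 1.58% were called higher and 0.218% lower at 1 h, and 2.73% and 0.812% at 2 h. At such shares few calls would fall among 67 genes. In 22 further folding and oxidation genes the median at 2 h was 0.01, in 16 ERAD genes -0.08, in 20 genes of translocation, signal peptide cleavage and glycosylation -0.00, and in 9 ER stress regulators -0.03. The highest at 2 h was Ppp1r15b, the constitutive partner of the phosphatase that reverses PERK, at 0.63. The lowest was Txndc11, a thioredoxin-domain protein, at -0.49 (-0.78 at 1 h). Both genes were picked out by their values. Txndc11 had signals of 113.3, 66.2 and 80.4, so it was read only through its 0 h array, and its low ratios depend on that filter.

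The nearest related systems had single genes past the limit, as the ER genes had with Herpud1. The shares over all genes read were 1.58% higher and 0.218% lower at 1 h, and 2.73% and 0.812% at 2 h. Lists of this size are too small to be told apart from those shares. Of 19 genes of ATF4 and the integrated stress response that were read, Atf3, a transcription factor, was called higher at both times (1.65 and 1.52). Sesn2, a stress-induced inhibitor of mTORC1, was called lower at 2 h (-0.90). It had signals of 127.7, 110.7 and 68.2, so it was read only through its 0 and 1 h arrays, and its call depends on that filter. The median of the 19 genes was 0.00 at 1 h and -0.13 at 2 h. Atf4 was at 0.22 and 0.09. Ddit3 encodes CHOP, a target of the PERK branch, and went from 1427.3 to 1069.3 and 930.5, or -0.62 on the log2 scale at 2 h. Slc3a2, of the same list, went the other way, from 733.2 to 1186.9 and 1134.7, or 0.63 at 2 h. Of this list 11 genes were above and 8 below 0 h at 1 h, and 7 and 12 at 2 h. Of 18 cytosolic and mitochondrial chaperone genes, Bag3, a cochaperone of Hsp70, was called higher at both times (1.04 and 1.45), with a list median of 0.11 and 0.04. With 1 array per time point the difference between these lists and the ER genes was not tested.

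**Figure D5:**
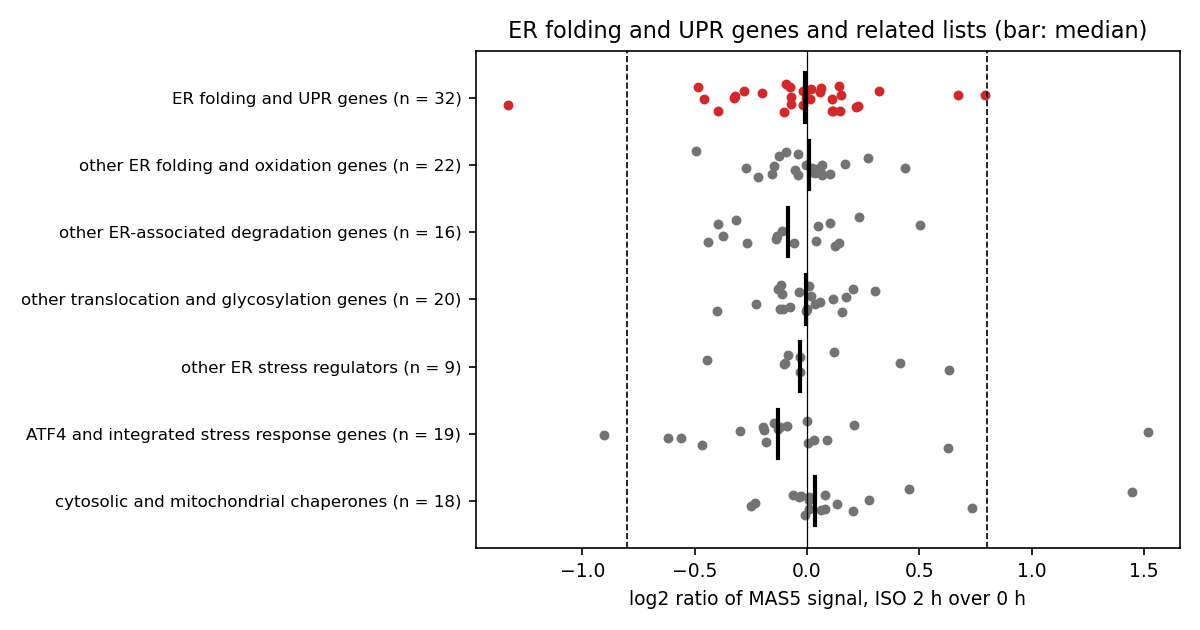
Log2 ratio for ISO 2 h over 0 h (horizontal axis) of the 32 ER folding and UPR genes (red) and of 6 related gene lists (grey), 1 point per gene; the black bar of each list is its median, and the dashed lines stand at 0.8 in either direction. Medians lie between -0.13 and 0.04, and Herpud1, Sesn2, Atf3 and Bag3 are the genes beyond the lines. The 2 h signal of Sesn2, 68.2, is below 100, so its place beyond the line depends on the filter.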

How the data were processed

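RNA of iBATs at 0, 1 and 2 h of ISO was hybridized to 3 Affymetrix mouse arrays, 1 per time point. The authors made the signals with MAS5, which the submitters' notes name, and deposited each as a linear intensity. The mean of an array, trimmed by 2% at both ends, is 100.0. The methods' exclusion of absent and low transcripts had not been applied to these tables. Precision is limited by the number of arrays, and no test was run.

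Probe sets were named through the platform annotation of the public archive and RefSeq genes (GRCm38.p6). Of 45101 probe sets, 34958 carried 1 symbol, 932 carried several, which excluded them, and 9211 had no name here. Of the 34 genes described, 87 probe sets were named and 61 kept, and 1 that also carried another symbol was not used. Symbols of 34754 probe sets were matched by gene identifier.

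Python 3.11.15, numpy 2.4.6 and pandas 2.3.3 gave the log2 ratios, after any signal under 0.1 was set to 0.1. The calculation was tested on simulated data. Genes were also divided into 20 classes of mean signal, for the middle 95% of ratios in each, which was chosen after values were seen. The members and lists were chosen with earlier results of these data known. Named with all values were the genes past the threshold, the 6 highest and 6 lowest at 2 h and the 4 sensors and transcription factors, and others to complete a role. Of the related lists, genes past the threshold were named, and a few more after their values were seen. Alternatives were 3 other filters, 2 treatments of low signals, 3 scalings (same median, quantile, and the cyclic loess of limma 3.58.1 under R 4.3.3), 3 choices of probe set and 2 thresholds. Motifs were searched as exact letters on both strands. A planned reading of protein sequences was not run, as no protein table was used here. Figures were drawn with matplotlib 3.10.9.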

Additional observations from a re-analysis of the deposited data

How the results depend on the processing

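Herpud1 was called lower at 2 h over 0 h under all 13 alternatives, with log2 ratios from -1.33 to -1.10. At 1 h over 0 h no ER gene was called under any of them. The number called higher at 2 h over 0 h, 0, was 1 with the arrays set to the same median and 1 with cyclic loess (Dnajb9 in both, at 0.81 and 0.80), and 2 at a threshold of 1.5-fold (Dnajb9 and Hyou1). For 2 h over 1 h, the number called lower, 1, was 0 with 32 added to each signal, 0 with the median over kept probe sets and 0 at 2-fold, and the number called higher, 0, was 1 without a filter (Derl3, at signals of 8.7 and 17.3) and 1 at 1.5-fold (Hyou1). The median log2 ratio of the ER genes lay between -0.02 and 0.04 at 1 h, between -0.03 and 0.02 at 2 h and between -0.07 and -0.00 for 2 h over 1 h. It crossed 0 in the first 2, where its sign has no meaning. The scaling of the arrays moved the median of all genes by less than 0.1, from -0.07 to -0.02 at 2 h. No paired analysis was possible because there is 1 array per time point. For the same reason no array could be left out. Over all genes, 109 were called higher and 15 lower at 1 h, 188 and 56 at 2 h, and 46 and 22 for 2 h over 1 h. With at least 100 on all 3 arrays these were 56 and 5, 109 and 12, and 15 and 6. With at least 200 on 1 array the lower calls were 8, 16 and 11 and the higher calls for 2 h over 1 h 23. With signals below 100 set to 100 the lower calls were 9, 22 and 11 and the higher calls for 2 h over 1 h 27, and with 32 added they were 8, 21 and 10, and 29. Cyclic loess gave 29 lower at 2 h. The probe set of largest ratio gave 28 lower at 1 h, and 77 higher for 2 h over 1 h. Without a filter the counts were 2181 and 2188, 2410 and 2164, and 2273 and 1973. At 2-fold the lower calls were 8, 17 and 10, and the higher calls for 2 h over 1 h 26. At 1.5-fold there were 166 and 52, 286 and 216, and 115 and 67.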
